A study of Homo sapiens with 10 samples.

Results

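State S2 is a transcriptional state that the study's authors assigned to single cells of a human ovarian cancer line under a series of olaparib doses, a PARP inhibitor. Its members were taken from the deposited cell table as every cell given the state S2. They number 1454 of the 8240 cells that carry a state and of the 18209 cells in the count matrix. The line is Kuramochi, labelled epithelial and BRCA2-mutant, and its cells were kept in RPMI with serum and exposed to the named olaparib concentration up to confluency, or left untreated. S2 cells come from the populations kept at 2.5, 5, 10 and 20 µM (T2.5, T5, T10 and T20). The other states are C (untreated), S1 (T1, T2.5 and T5), S3 and S4 (T10 to T80) and S5 (T160 and T320). All 10 populations carry the BRCA2 mutation, are of 1 line and gave 1 inDrop library each. Nothing in these data is therefore replicated, and a step between doses is also a step between libraries.

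Fibrillar collagens such as types I and III are secreted by mesenchymal cells and form the tension-bearing fibres of connective tissue. Pericytes and smooth muscle cells, which wrap vessels, express contractile actins and regulators such as RGS5, whereas high-grade serous carcinoma usually carries keratins and Mullerian lineage factors such as PAX8, WT1 and SOX17. BRCA2 acts in homologous recombination, and cells that lack it depend on PARP enzymes for the repair of DNA breaks.

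The S2 cells held 701 to 7986 unique molecular identifiers (UMIs, counted transcripts), with a median of 2279. Summed UMIs were 343794 in T2.5, 640406 in T5, 1436786 in T10 and 1467394 in T20, from 134, 215, 688 and 417 cells. Mitochondrial transcripts were 7.88% to 9.12% of S2 UMIs, against 5.57% and 6.27% in S4 at T20 and T10, 7.60% and 8.16% in S3, and 8.63% and 9.63% in S1. For 160 S2 cells (11%) the same barcode also occurred in another library, as it did for 10.4% of the other cells with a state, and 8 S2 cells (0.55%) shared one with an S2 cell of another library. Cells without a state were richer in cycling transcripts: a G2/M list of 32 genes summed to 784 to 1193 CPM, that is UMIs scaled to a common total, in S2 and to 4534 to 7088 CPM in the cells without a state of the same 4 libraries. The authors' deposited cell table carries the tag g1 in its name. Whether its cells were chosen by cell cycle phase is not stated in the sources used here, and was not tested.

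S2 made up a growing share of the cells with a state up to T10. It held 17.6% of 760 cells in T2.5 (exact binomial 95% interval 15.0 to 20.5), 54.0% of 398 in T5 (49.0 to 59.0), 66.8% of 1030 in T10 (63.8 to 69.7) and 65.2% of 640 in T20 (61.3 to 68.8). The intervals of T10 and T20 overlapped, and those of T2.5 and T5 overlapped with no other. They cover the counting of cells only. S1 supplied the remaining cells of T2.5 and T5, and S3 and S4 those of T10 and T20.

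**Figure D1:**
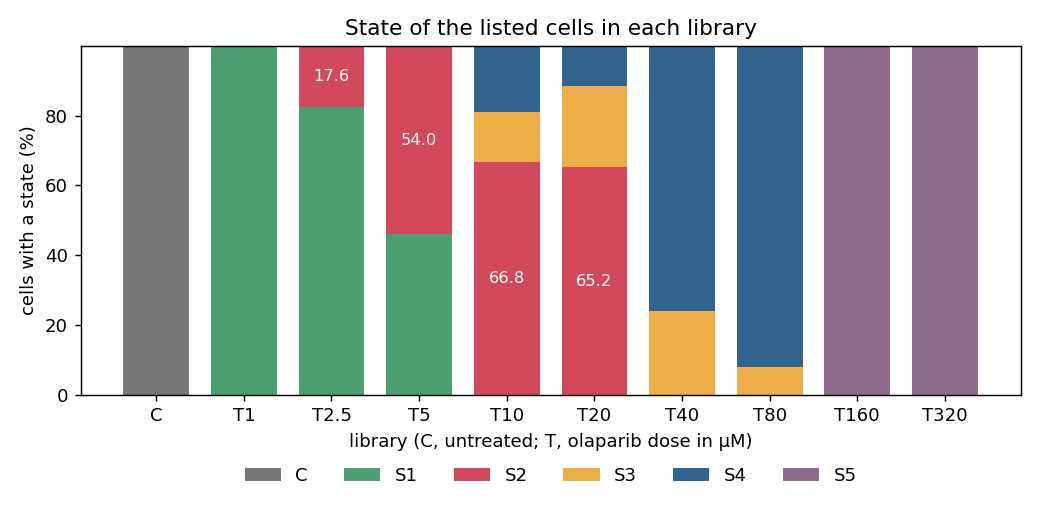
Stacked bars of the percent of cells with a state that each state holds, in each of the 10 libraries. S2 holds 17.6%, 54.0%, 66.8% and 65.2% in T2.5, T5, T10 and T20 and is absent from the others.

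Levels below are CPM of the UMIs summed over the cells of 1 state in 1 library. A difference is that of log2(CPM + 10) between 2 such sums, which understates the change of low genes. Higher and lower, as counts of genes, mean a difference of at least 1, a 2-fold change on that scale, among genes with at least 50 CPM on 1 side and at least 30 UMIs on both together. Across libraries each library with at least 50 cells of a state has equal weight. Intervals of folds are exact Poisson 95% intervals and cover counting error only. The states may have been derived from these same counts, so a state set against another is a description and carries no test. Counts are of 3′ tags, so a level is compared between groups of cells for 1 gene and not between genes.

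The given markers of S2 are COL3A1 (type III collagen, chr2:188974320-189012746, plus strand), COL1A1 (type I collagen, chr17:50183289-50201632, minus strand) and RGS5, a regulator of G-protein signalling that marks pericytes; positions are on GRCh38. COL3A1 stood at 2539 CPM in S2 of T2.5, 2873 in T5, 1265 in T10 and 348 in T20, against 32.8 CPM in C. COL1A1 stood at 512, 248, 479 and 64.7 CPM in the same order, and RGS5 at 451, 645, 173 and 223 CPM. COL3A1 and RGS5 were higher at the lower doses, whereas COL1A1 was lowest in T20 and similar in T2.5 and T10. In T5 the 5 cells richest in COL1A1 held 66.7% of its 159 UMIs, so that level rests on few cells. Averaged over libraries, COL3A1 exceeded every other state by at least 1.15, COL1A1 by 1.31 and RGS5 by 1.01 on the log2 scale.

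Within single libraries the 3 markers were at least 2-fold higher in S2 than in S1, COL3A1 and RGS5 also than in S3, and none than in S4. COL3A1 was 4.78-fold higher in S2 than in S1 of T2.5 (interval 4.33 to 5.27) and 3.34-fold higher in T5 (3.02 to 3.70). It was 5.61-fold higher than in S3 of T10 (4.43 to 7.20) and 6.79-fold higher in T20 (4.58 to 10.5). COL1A1 stood at 241 and 29.6 CPM in S3, 1.99-fold (1.57 to 2.55) and 2.19-fold (1.26 to 4.06) below S2, with log2 differences of 0.96 and 0.92 that missed the 2-fold mark, and 27.3% of S2 and 27.4% of S3 cells of T10 had a COL1A1 UMI. S4 cells of T10 and T20 held more COL3A1, 1909 and 800 CPM, which is 1.51-fold (1.39 to 1.64) and 2.296-fold (1.94 to 2.71) the level of S2. The order was the same for COL1A1, at 1732 and 198 CPM in S4 and 3.62-fold and 3.06-fold over S2, and for RGS5, at 420 and 307 CPM in S4 and 2.42-fold and 1.38-fold over S2. The means across libraries set S2 of T2.5 to T20 against S4 of T10 to T80, so the excess of S2 over S4 there is not one within a library.

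**Figure D2:**
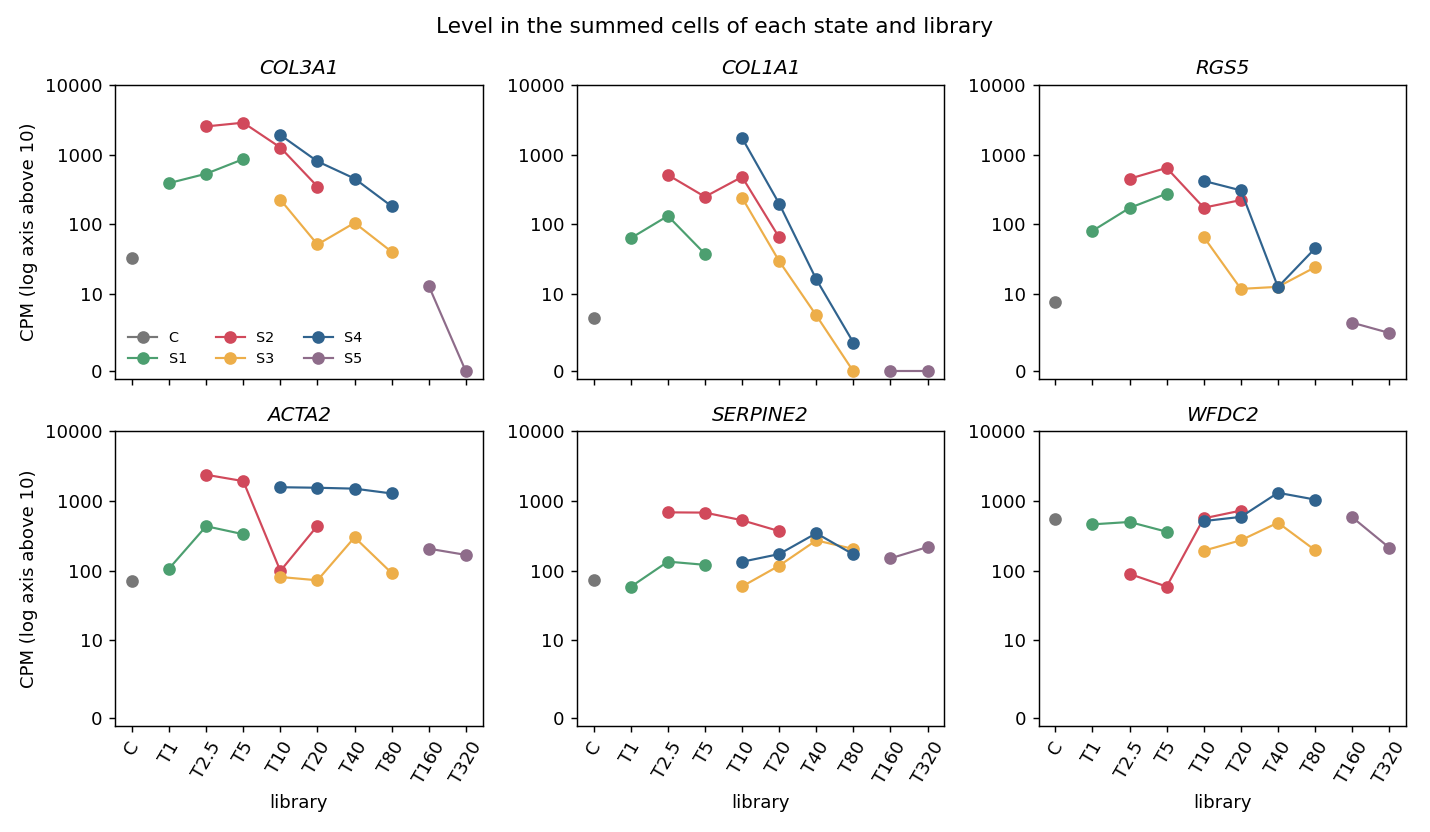
Level (CPM, axis linear below 10 and logarithmic above) of 6 genes in the summed cells of each state, 1 point for each library, with lines joining the points of a state. COL3A1 of S2 falls from 2873 CPM in T5 to 348 CPM in T20, ACTA2 dips to 99.5 CPM in T10 and WFDC2 rises from 59.3 to 731 CPM.

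At equal depth the fall of COL3A1 was also a fall in the number of cells with a transcript. After each cell was thinned to 1000 UMIs, with shallower cells left out, 66.3% of 92 S2 cells had a COL3A1 UMI in T2.5, 73.0% of 178 in T5, 37.7% of 613 in T10 and 22.8% of 390 in T20. Without thinning the shares were 81.3%, 80.0%, 44.5% and 38.1%. Within the same libraries the thinned share was 31.0% and 37.1% in S1 of T2.5 and T5 and 11.6% and 1.41% in S3 of T10 and T20. No cell type in T2.5 and T5 lacks the gene, so the part of free RNA there was not tested. The shares of S2 in T10 and T20 lay above those of S3 and below those of S4, 70.7% and 44.4%.

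Across all libraries, 21 of 4708 genes, 0.446% of those measured, were at least 2-fold higher in S2 than in each of the 5 other states, and 0 were at least 2-fold lower than in each of them. Without the S2 cells of T5 the count was 11, and without those of T2.5 it was 14. The strongest was SLC8A1, the sodium-calcium exchanger of the plasma membrane (chr2:40097270-40611053), with 81.4, 119, 68.2 and 95.4 CPM in S2 from T2.5 to T20 and 6.90 to 40.4 CPM in the other groups. Its S2 levels did not overlap with those of any other state. FAM198B (279, 362, 287 and 151 CPM) and SERPINE2, a secreted inhibitor of thrombin and plasminogen activators (689, 684, 531 and 371 CPM), differed by at least 1.64 and 1.47. SEMA3D, a secreted guidance cue, stood at 186, 247, 221 and 49.7 CPM, so that T20 fell to the level of S1 (40.5 to 54.2 CPM). COL2A1, the collagen of cartilage, ran from 56.4 to 93.1 CPM in S2 and from 0 to 28.6 CPM elsewhere. The others named by rule were MGAT4C, a Golgi glycosyltransferase, THSD7A, C1QTNF3 and PDGFRB, the PDGF receptor of mural cells and fibroblasts, with smallest differences of 1.41, 1.30, 1.18 and 1.17. PDGFRB is listed at 0 in the whole T20 library, which is not a measured absence, and its S2 levels in T2.5, T5 and T10 were 66.9, 92.1 and 7.66 CPM. The 0 of T20 enters the means of S2, S3 and S4. From T10 to that 0 the difference was -0.82 in S2 and -2.44 in S4, so S4 of T10 held more PDGFRB than S2 of T10. Its excess over S4 is thus one of the means across libraries only. ACTA1, skeletal muscle actin, differed by at least 1.41, but its 19 UMIs in T2.5 came from 6 cells and its 26 UMIs in T5 from 8 cells.

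The genes lowest in S2 fell short of the 2-fold mark. PDLIM1, a cytoskeletal LIM-domain protein, differed by at least -0.86, with 53.1 to 94.0 CPM in S2 and 103 to 277 CPM in the other groups, which did not overlap. S100A10, the partner of annexin A2 at the membrane, differed by at least -0.74, with 228 to 712 CPM in S2 and 552 to 2306 CPM elsewhere. KHDRBS3, an RNA-binding protein, differed by at least -0.76. ACADVL, an enzyme of mitochondrial fatty acid oxidation, CTDNEP1, a phosphatase of the nuclear envelope, and RNF167, a ubiquitin ligase, also belong to the 12 lowest, with -0.60, -0.46 and -0.45. ACADVL, CTDNEP1 and RNF167 all lie in the short arm region of chromosome 17 that is described further on. ACADVL stood at 102, 111, 272 and 164 CPM in S2 from T2.5 to T20. The 12 lowest also held RASSF8, CAPN2, PSME1, BAZ1A, BCL2L1 and RNH1, with -0.61, -0.59, -0.57, -0.50, -0.49 and -0.45. None of these lies on chromosome 17, nor do PDLIM1, S100A10 and KHDRBS3.

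S2 stood closest to S1 by the number of genes called. Across libraries 1.80% of 5060 genes were higher and 1.98% lower than in S1, against 7.12% and 4.37% for C, 5.30% and 4.17% for S3, 4.63% and 3.69% for S4, and 8.97% and 6.94% for S5. For S5 that is 470 genes higher and 364 lower, which became 570 and 229 with TMM factors and 570 and 227 with DESeq2 size factors. S1 and S2 share T2.5 and T5, and S2 shares T10 and T20 with S3 and S4, whereas C and S5 share no library with S2. Comparisons inside a library hold dose and library constant and are given next.

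Against S1, S2 cells of the same library were higher in most fibrillar collagens and mural markers and lower in most serous and Mullerian genes. Of all measured genes, 2.89% were higher and 3.30% lower in T2.5, and 3.15% and 3.53% in T5. In both libraries together, 61 of 3644 genes were higher (1.67%) and 52 lower (1.43%). Of the fibrillar collagens, 5 of 6 were higher and 0 lower in each library, with medians of 1.88 and 1.81 where the median of all genes was -0.02 and -0.03. Here and below, counts of fibrillar collagens are of a list that also holds fibril-associated collagens such as COL14A1. Of the pericyte and mural markers, 6 of 7 and 4 of 6 were higher. Of the serous and Mullerian genes, 7 of 9 and 6 of 9 were lower and 0 were higher, and of the epithelial genes 2 of 8 and 5 of 8 were lower and 0 were higher.

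ACTA2, smooth muscle actin (chr10:88935074-88991339), stood at 2388 and 1936 CPM in S2 of T2.5 and T5 and at 436 and 335 CPM in S1. The folds were 5.47 (4.93 to 6.08) and 5.78 (4.96 to 6.78). EMCN, endomucin, a sialoglycoprotein known from endothelium, stood at 157 and 415 CPM against 19.5 and 48.4 CPM, or 8.04-fold (5.00 to 13.2) and 8.59-fold (5.77 to 13.3). The endothelial markers of the check, of which 3 of 5 are in the matrix, are listed at 0 in every S2 sum, which low transcripts would also give, while TIE1, another endothelial gene, stood at 265 and 181 CPM in S2 and at 191 and 248.9 CPM in S1. LHFP (332 and 428 CPM against 55.1 and 60.9), C11orf96 (227 and 334 CPM against 35.6 and 41.2) and PCDH18, a protocadherin (111 and 195 CPM against 11.9 and 25.1), were also among the 6 genes most above S1. PDGFRB stood at 4.89 and 3.58 CPM in S1 and was 13.7-fold (5.69 to 37.8) and 25.7-fold (6.81 to 217) higher in S2.

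The 6 genes most below S1 in both libraries were CD24, PODXL, GJA5, WFDC2, DPP4 and SOX17. WFDC2, the secreted ovarian cancer marker HE4 (chr20:45469706-45481532), stood at 90.2 and 59.3 CPM in S2 and at 502 and 364 CPM in S1, 5.57-fold (3.89 to 8.25) and 6.13-fold (4.32 to 8.91) higher there. SOX17, a Mullerian lineage factor, stood at 23.3 and 15.6 CPM against 131 and 140 CPM. PODXL, an anti-adhesive sialomucin, stood at 23.3 and 28.1 CPM against 219 and 383 CPM. CD24, a surface glycoprotein of epithelial cells, had 0 UMIs in S2 of T2.5, where S1 was at least 7.28-fold higher against a floor of 3 UMIs, and was 19.5-fold higher in S1 of T5 (6.30 to 97.7). GJA5, a connexin, and DPP4, a surface peptidase, had differences of at most -2.64 and -2.16. KRT8, a keratin of simple epithelia, separated the states in T5 (294 against 965 CPM, 3.29-fold) more than in T2.5 (1073 against 1491 CPM, 1.39-fold).

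Against S3, S2 cells held fewer keratin and filaggrin transcripts and more collagen, Notch target and ID transcripts. Higher were 4.99% of genes in T10 and 5.77% in T20, and lower were 4.90% and 5.54%. In both libraries, 100 of 3595 genes were higher (2.78%) and 101 lower (2.81%). Of the epithelial genes, 7 of 9 were lower in T10 and 6 of 8 in T20, with medians of -1.89 and -2.11. Of the fibrillar collagens, 3 of 5 and 4 of 5 were higher and 0 lower. The serous and Mullerian genes were divided, with 3 of 8 higher and 4 lower in T10 and 3 of 9 higher and 5 lower in T20. FLG, filaggrin of the cornified skin layer, stood at 721 and 389 CPM in S3 and at 2.09 and 2.04 CPM in S2, with 3 UMIs in each S2 sum, a ratio of 345 (117 to 1686) and 190 (64.1 to 930). KRT19 stood at 298 and 330 CPM in S3 and at 9.05 and 10.9 CPM in S2. PTGDS, prostaglandin D synthase, stood at 614 and 1080 CPM in S3 and at 65.4 and 28.6 CPM in S2, 9.39-fold and 37.7-fold lower in S2. FAM83A, LYPD1 and CADM3, a neural adhesion molecule, were the others most below S3, with differences of at most -3.44, -3.43 and -3.10.

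CYP1B1, a cytochrome P450 that oxidises oestradiol and xenobiotics (chr2:38066973-38109902), was the gene furthest above S3. It stood at 920 and 1494 CPM in S2 and at 37.6 and 71.1 CPM in S3, 24.5-fold (13.96 to 47.5) and 21.0-fold (15.1 to 30.1) lower there. It was also 7.44-fold (5.69 to 9.90) and 6.73-fold (5.15 to 8.96) higher than in S4. After thinning, 43.6% of S2 cells in T10 and 60% in T20 had a CYP1B1 UMI. EMCN had 0 UMIs in S3 of T10, where S2 was at least 20.4-fold higher, and was 15.97-fold higher in T20 (6.13 to 59.2). LGR5, a receptor for R-spondins of the Wnt pathway, stood at 143 and 111 CPM in S2 and at 6.27 and 5.92 CPM in S3.

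Of the TGF-beta response list, 5 of 12 were higher than S3 and 0 lower in each library, with ID1 and ID3, inhibitors of basic helix-loop-helix factors, among them (ID1 1749 and 1713 CPM against 677 and 645; ID3 361 and 497 CPM against 110 and 128). Of the Notch and Wnt list, 3 of 9 and 6 of 8 were higher and 0 lower. HES1, the canonical Notch target, stood at 775 and 461 CPM in S2 and at 144 and 84.9 CPM in S3, 5.38-fold (4.01 to 7.39) and 5.43-fold (3.99 to 7.57). FAM107A, FILIP1L and VAV3 also belong to the 6 genes most above S3, with differences of at least 3.25, 3.16 and 3.01. LAMA4, the laminin chain of vessel basement membranes, stood at 91.9 and 116 CPM in S2 and at 3.13 and 17.8 CPM in S3.

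Against S4, most fibrillar collagens were lower in S2. Higher in S2 were 5.19% of genes in T10 and 6.66% in T20, and lower were 4.31% and 5.35%; 98 of 3565 genes were higher (2.75%) and 85 lower (2.38%) in both. Of the fibrillar collagens, 5 of 7 were lower in T10 and 4 of 6 in T20, and only COL2A1 was higher. Of the pericyte and mural markers, 3 of 4 and 2 of 5 were lower and 0 were higher, and of the mesenchymal genes 4 of 13 and 5 of 13 were lower. Of the serous and Mullerian genes, 4 of 5 and 3 of 5 were higher and 0 lower. Other matrix lists were mixed. Of the matrix glycoproteins and proteoglycans, 3 of 13 were higher and 3 lower in T10 and 1 of 11 higher and 5 lower in T20, and of the matrix proteases and inhibitors 2 of 7 were higher and 2 lower, then 2 of 6 and 1.

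TGFBI, a secreted matrix protein induced by TGF-beta (chr5:136028895-136063818), separated these states most widely in T10, with 8.35 and 12.95 CPM in S2 and 884 and 279 CPM in S4. S4 was 106-fold (59.9 to 206) and 21.5-fold (12.8 to 37.9) higher. RGS4, a relative of RGS5, stood at 16.01 and 10.2 CPM in S2 and at 504 and 448 CPM in S4. VCAM1, an adhesion receptor for leukocytes, stood at 14.6 and 14.3 CPM in S2 and at 524 and 137 CPM in S4. GAS1, a Hedgehog co-receptor, FHL1 and LMO7, both LIM-domain proteins, were the others most below S4, with differences of at most -2.32, -2.13 and -2.05.

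CP, ceruloplasmin, and MECOM, a zinc-finger transcription factor amplified in many ovarian cancers, stood highest above S4. CP stood at 72.4 and 96.1 CPM in S2 and had 0 UMIs in S4 of both libraries, at least 10.9-fold and 7.93-fold lower. MECOM stood at 114 and 63.4 CPM in S2 and at 6.63 and 0 CPM in S4. PLXNA4, a semaphorin receptor, stood at 299 and 185 CPM against 33.1 and 8.08 CPM, LRRN2 at 131 and 174 CPM against 13.3 and 12.1 CPM, and REC8, a meiotic cohesin, at 145 and 121 CPM against 11.1 and 12.1 CPM. IGFBP3, which binds insulin-like growth factors, stood at 128 and 452 CPM in S2 and at 22.1 and 24.2 CPM in S4, 5.80-fold (3.08 to 12.3) and 18.6-fold (8.52 to 51.0) higher in S2. CDKN2A, which encodes p16 and p14ARF, was 3.13-fold and 7.05-fold higher in S2, at 686 and 541 CPM.

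**Figure D3:**
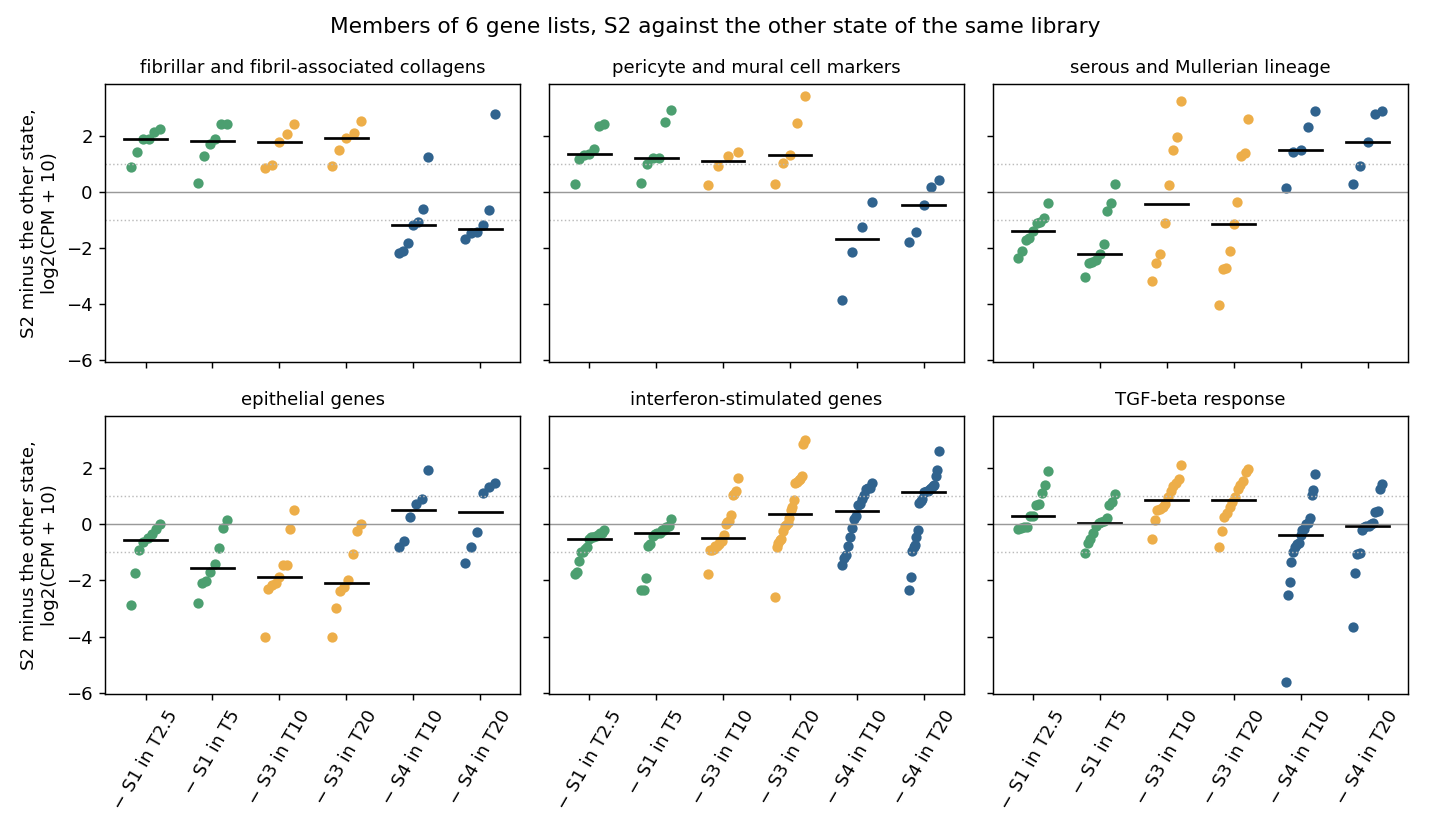
Difference of log2(CPM + 10), S2 minus the other state of the same library, for the measured members of 6 gene lists, 1 point for each gene, with a black line at the median and dotted lines at a difference of 1 and -1. Fibrillar and fibril-associated collagens lie above S1 (medians 1.88 and 1.81) and below S4 (-1.18 and -1.30), and the serous and Mullerian genes lie the other way.

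Marker sums set the label of the line beside the state. The 5 epithelial markers in the matrix summed to 397 to 1513 CPM in S2, below S3 (1767 to 2892 CPM) and overlapping with S1 (1266 to 2201 CPM) and S4 (330 to 1179 CPM). Within T2.5 and T5 the sum was 1513 and 397 CPM in S2 and 2201 and 1266 CPM in S1. Within T10 and T20 it was 577 and 637 CPM in S2 and 910 and 1179 CPM in S4. The pericyte and mural markers, 7 of 9 in the matrix, summed to 940 to 7214 CPM in S2 and to 2742 to 4453 CPM in S4. Within T2.5 and T5 their sum was 7214 and 4656 CPM in S2 and 2156 and 1501 CPM in S1. Within T10 and T20 it was 940 and 1663 CPM in S2, 417 and 511 CPM in S3 and 4453 and 4249 CPM in S4. The serous markers summed to 282 to 361 CPM, with PAX8, the Mullerian transcription factor, at 239, 337, 241 and 246 CPM, below S1 (657 to 807 CPM) and above S4 (99.4 to 189 CPM). None of the 6 immune markers is in the matrix. As sums, S2 cells thus carried PAX8 and keratin transcripts beside collagen and smooth muscle transcripts, and they are called here by the authors' state name only.

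S2 itself changed with dose, least from T2.5 to T5 and most from T5 to T10. From T2.5 to T5, 2.88% of genes were higher and 2.33% lower. From T5 to T10, 401 of 4341 genes were higher (9.24%) and 228 lower (5.25%), and from T10 to T20, 144 of 4191 were higher (3.44%) and 260 lower (6.20%). From T5 to T20, 3.44% were higher and 5.62% lower. With the scaling factors of edgeR (TMM) in place of library totals the split was 258 higher and 309 lower from T5 to T10, and 248 higher and 140 lower from T10 to T20. With DESeq2 size factors it was 262 and 303, then 245 and 143, and 98 higher and 124 lower from T2.5 to T5, where library totals gave 115 and 93. The largest shift of the median gene under another scaling was 0.17 on the log2 scale, and the balance of directions in these steps follows the scaling.

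From T2.5 to T5 keratins and some interferon-stimulated genes fell. KRT8 fell from 1073 to 294 CPM and KRT18, its partner in intermediate filaments, from 416 to 87.4 CPM, and 3 of 6 epithelial genes were lower. The interferon-stimulated genes IFI6 (782 to 119 CPM) and IFI27 (209 to 23.4 CPM) fell as well, 2 of 12 of their list. S1 of the same libraries moved the same way, with KRT8 at 1491 and 965 CPM and differences of -1.37 for KRT18 and -2.02 for IFI6, against -2.13 and -2.62 in S2. Of the 93 genes lower in S2, 20 were lower in S1, and of the 115 higher, 6 were higher. Among all 4144 genes measured in this step of S1, 65 were lower and 27 higher. Of the fibrillar collagens, 1 of 6 was higher and 1 lower.

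From T5 to T10 the transcripts of smooth muscle genes and of 4 of 6 fibrillar collagens dropped, with 0 of the collagens higher by 2-fold and COL1A1 at 248 and 479 CPM. Of the serous and Mullerian genes, 2 of 5 were higher and 0 lower, with PAX8 at 337 and 241 CPM. ACTA2 dropped from 1936 to 99.5 CPM, 19.4-fold (16.4 to 23.3), and stood at 444 CPM in T20. MYL9, the regulatory light chain of smooth muscle myosin (chr20:36541484-36551447), stood at 1475, 815, 84.2 and 534 CPM, and ACTG2, enteric smooth muscle actin, at 268, 195, 13.9 and 74.96 CPM. TAGLN, transgelin of smooth muscle, stood at 3953, 1704, 494 and 846 CPM. All 4 contractile genes were lowest in T10 and none regained its T5 level in T20. MYL9 was also lower in T10 than in T20 in S4 (340 and 1224 CPM) and S3 (163 and 359 CPM), whereas ACTA2 stood at 1582 and 1555 CPM in S4. Whether the states differ in this step was not tested. In T20, 57.3% of the ACTG2 UMIs came from 5 cells. Of the pericyte and mural markers, 5 of 6 were lower from T5 to T10 and 0 higher. CRYAB, a small heat shock protein, dropped from 200 to 9.74 CPM, 20.5-fold (11.8 to 38.6), and ISM1 and CCDC3 by 2.76 and 2.71 on the log2 scale.

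Serum response factor drives contractile genes through the CArG box, a short palindromic element, and the start regions of these genes were read for it. Of the contractile genes named above or fixed with them, RefSeq start windows (GRCh38.p14, 250 bases before the start) were at hand for ACTG2, ACTA2, CNN1 and LMOD1. ACTG2 alone held the element, with 2 matches, against 1.16% of all 35116 windows (407) with at least 1. Its window is chr2:73892758-73893007 on the plus strand, shown because ACTG2 falls with ACTA2 and MYL9 in T10, with the 2 matches in capitals, the first from base -110 to base -101 relative to the start.
ACTG2 start region: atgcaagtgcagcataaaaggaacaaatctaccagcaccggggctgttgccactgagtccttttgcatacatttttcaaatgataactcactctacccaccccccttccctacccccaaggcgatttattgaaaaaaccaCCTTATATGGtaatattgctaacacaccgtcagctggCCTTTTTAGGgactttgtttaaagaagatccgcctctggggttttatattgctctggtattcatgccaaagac
A match is a run of letters and not a measured site, and the missing matches in ACTA2, CNN1 and LMOD1 say only that the strict letters are not in those windows.

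WFDC2 rose from 59.3 CPM in T5 to 566 in T10 and 731 in T20, 9.54-fold (6.89 to 13.6) and 12.3-fold (8.91 to 17.5) over T5. S4 of T10 and T20 held 517 and 594 CPM, close to S2. After thinning to 1000 UMIs, 4.49% of the S2 cells had a WFDC2 UMI in T5, 35.2% in T10 and 39.2% in T20 (13.9%, 53.8% and 71.2% unthinned). In the same libraries S3 gave 11.6% and 20.4% in T10 and T20, and S4 gave 32.8% and 44.4%; the part of free RNA was not tested. S100A2, a calcium-binding protein of epithelia, rose from 51.5 to 358 and 716 CPM, and SLC34A2, a phosphate transporter of serous tumours, from 6.25 to 65.4 and 95.4 CPM. EIF4A1, an RNA helicase of translation initiation, peaked in T10, at 43.7, 338 and 135 CPM in T5, T10 and T20. EIF4A1 lies in the short arm region of chromosome 17 described further on, which rose as a block from T5 to T10. FOSB, an AP-1 subunit, rose from 37.5 to 250 CPM in T10, with 3 of 12 AP-1 and immediate early genes higher and 0 lower. ANKRD36 and PGM2L1 were the others most higher in T10, with 2.52 and 2.51.

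From T10 to T20, 3 of 6 fibrillar collagens were lower and 0 higher in S2, with COL2A1 at 56.4 and 58.6 CPM and the fibril-associated COL14A1 at 57.8 and 119 CPM. COL1A1 fell from 479 to 64.7 CPM, 7.40-fold (5.96 to 9.27), COL3A1 3.63-fold (3.29 to 4.02), and BGN, the proteoglycan biglycan, from 212 to 45.7 CPM. COL1A1 and COL3A1 fell in the other states of these libraries too, with differences of -2.67 and -1.94 in S3 and -3.07 and -1.24 in S4, against -2.71 and -1.83 in S2. TIE1, a receptor tyrosine kinase of endothelium, stood at 265, 181, 130 and 5.45 CPM from T2.5 to T20, a drop of 23.9-fold (11.9 to 56.1) in the last step, while S3 held 539 and 351 CPM of it in T10 and T20. SNCG, gamma-synuclein, fell from 114 to 17.7 CPM. Over T5 to T20, PDE1A, a phosphodiesterase (106 CPM in T5, listed at 0 in the T20 library), FBLN5, an elastic fibre protein (206 to 21.1 CPM), and ISLR (99.9 to 6.82 CPM) were also among the 6 genes that fell most.

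Of the interferon-stimulated genes, 6 of 19 were higher and 0 lower from T10 to T20, and 12 of 19 from T5 to T20, where 3.44% of all genes were. ISG15, a ubiquitin-like modifier, stood at 122, 70.3, 64.0 and 447 CPM from T2.5 to T20, 6.98-fold (5.61 to 8.78) higher in T20 than in T10. IFI6 stood at 782, 119, 163 and 793 CPM, so its level in T20 equalled that of T2.5 and the course was not monotone. IFIT1, which binds viral RNA, stood at 17.4, 18.7, 60.6 and 141 CPM, and MX1, an antiviral GTPase, at 26.2, 3.12, 30.6 and 74.96 CPM. IFI6 was higher in T20 than in T10 in S3 (65.8 and 274 CPM) and S4 (81.7 and 440 CPM) too. Against the other states of T20, 7 of 20 of these genes were higher in S2 than in S3 and 11 of 21 higher than in S4, against 5.77% and 6.66% of all genes. IFI27 went the other way, at 41.6 CPM in S2 against 302 in S3 and 254 in S4. These genes differed in how far single cells carried their UMIs in T20. The 5 cells richest in IFI6 held 7.14% of its UMIs, those richest in ISG15 39.6% and those richest in IFIT3 51.4%, and cells without a state held 503 CPM of IFI6. RSAD2, viperin, and CCL5, a chemokine, reached 55.2 and 54.5 CPM in T20 through 12 and 8 cells, of which 5 held 85.2% and 86.2% of the UMIs. Both are listed at 0 in the T5 and T10 libraries, so no fold is given for them.

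Part of the last step was common to the states of these 2 libraries. Of the 144 genes higher in S2 of T20 than of T10, 72 were at least 2-fold higher in S3 as well and 55 in S4, 42 in both, and 0 went the opposite way by that size. Of the 260 lower genes, 111 were lower in S3, 109 in S4 and 62 in both. Among all genes measured in this step, 189 of 4222 were higher and 353 lower in S3. In S4, 120 of 4073 were higher and 349 lower. The 3 states come from the same 2 libraries, so a change of dose and a difference between libraries cannot be told apart here. RPS2, a ribosomal protein with near-identical copies in the genome and hence uncertain, was at 416 and 1706 CPM in S2, 523 and 2312 in S3 and 488 and 1737 in S4. ZNF90, a zinc-finger gene with close relatives and uncertain for the same reason, stood at 59.2 and 476 CPM in S2, 65.8 and 436 in S3 and 81.7 and 477 in S4. SRSF11, a splicing factor, stood at 757 and 187 CPM in S2, 479 and 154 in S3 and 519 and 145 in S4. Of the genes that peaked in T10, DLC1 (285 against 53.1 in T5 and 74.3 in T20), KDM6B, a histone H3K27 demethylase (50.8 against 7.81 and 7.496), and HOXB3 (56.4 against 6.25 and 9.54) completed the top of that list. From T10 to T20 they differed by -1.81, -1.80 and -1.76 in S2, by -1.36, -0.59 and -1.99 in S3 and by -1.53, 0.32 and 0.07 in S4. KDM6B lies in the short arm region of chromosome 17 described further on.

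CYP1B1 ran against the collagens, higher at each dose than at the one before, at 585, 709, 920 and 1494 CPM from T2.5 to T20, 2.11-fold (1.91 to 2.34) from T5 to T20. From T10 to T20 CYP1B1 rose in S3 and S4 as well, with differences of 0.77 and 0.80 against 0.69 in S2. IGF2, the growth factor and one of the most counted transcripts, fell from 12520 CPM in T5 to 7024 and 4212 CPM, 2.97-fold (2.87 to 3.07). S100A6 rose from 504 to 682 and 2118 CPM, and in S3 and S4 it also rose from T10 to T20 (909 to 2779 and 923 to 1959 CPM). Of the nuclear-encoded respiratory chain genes, 0 of 26 to 28 were called in each comparison with S1, S3 and S4, and in the steps 2 of 27 were higher from T10 to T20 and 0 otherwise. Few genes of homologous recombination were abundant enough to be measured within libraries and between doses, 3 or 4 of 31, and 1 of 3, ATM, the kinase that senses double-strand breaks, was higher from T5 to T10 (71.8 to 164 CPM).

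Genes at the start of chromosome 17 moved as a block. Positions were available for 12179 of the 12373 genes (GENCODE 29, GRCh38), and genes were grouped in windows of 20 Mb with at least 20 measured genes. The first 20 Mb of chromosome 17, with 195 genes, had the largest median shift of all windows in both comparisons with S1, against S3 in T20, and from T5 to T10 and T5 to T20. The window was singled out after these ranks were seen. Its median was -0.66 against S1 in T2.5 (47 genes, 43 of them below the median of all genes), -0.71 in T5 (50 genes, 47 below) and -0.87 against S3 in T20, where 25 of 67 genes were lower (37.3% against 5.54% of all). From T5 to T10 its median rose by 1.27, with 39 of 64 genes higher (60.9% against 9.24% of all). The window stood at -0.31 against S3 and 0.10 against S4 in T10, and -0.58 against S4 in T20.

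Cell by cell, the window's share of UMIs was low in most S2 cells of T2.5 and T5 and spread widely in T10. Among cells with at least 2000 UMIs, the median share was 0.611% in T2.5 (58 cells, quartiles 0.502 and 0.711), 0.510% in T5 (122 cells, 0.410 and 0.668), 1.43% in T10 (330 cells, 1.00 and 2.02) and 1.07% in T20 (325 cells, 0.901 and 1.22). Untreated cells had a median of 1.17%, S3 of T10 and T20 1.80% and 1.68%, and S4 1.39% and 1.51%. S1 had medians of 0.707% in T1 (quartiles 0.509 and 1.19), 0.949% in T2.5 (0.567 and 1.56) and 0.835% in T5 (0.528 and 1.32). In each of these libraries the lower quartile of S1 was below the S2 median of T2.5, so low shares also occurred in S1 cells. Over all S2 cells, whatever their depth, the medians were 0.669%, 0.551%, 1.31% and 1.08%. PFN1 gave 14.02% of the window's UMIs, RPL26 7.92% and UBB 7.43%. DNA was not measured, so the number of copies of this region is not known from these data, and its part in the other differences was not tested.

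**Figure D4:**
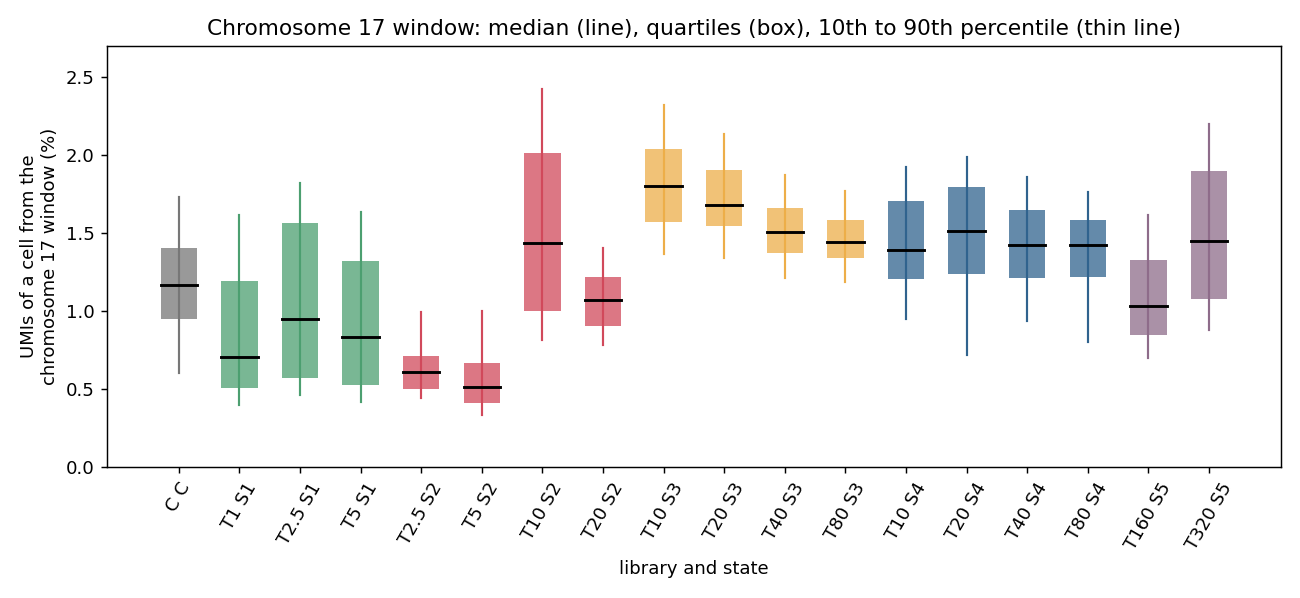
Percent of each cell's UMIs from genes in the first 20 Mb of chromosome 17, for cells with at least 2000 UMIs, by library and state, with boxes from the lower to the upper quartile, black lines at the median and thin lines from the 10th to the 90th percentile. S2 medians are 0.611 and 0.510 in T2.5 and T5 and 1.43 and 1.07 in T10 and T20.

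S2 cells of T10 were not uniform, and the markers varied with this share. The 330 cells were ordered by it and cut into equal groups of 110, with medians of 0.909%, 1.43% and 2.24%; the cut points are arbitrary points of a range, and the middle group lies between the extremes. COL3A1 stood at 2756 CPM in the 110 cells with the lowest share, 787 in the middle and 185 in the highest. The lowest group was thus near the S2 cells of T5, with 2873 CPM, and differed from the highest 14.9-fold (11.5 to 19.8; 846 and 60 UMIs). RGS5 stood at 332, 147 and 6.15 CPM, SERPINE2 at 938, 454 and 111 CPM, and FN1, fibronectin, at 5402, 3114 and 649 CPM. EMCN stood at 381, 122 and 46.1 CPM, and COL1A1 at 831, 384 and 289 CPM. SFRP1, a Wnt antagonist, CTHRC1 and COL26A1 complete the 8 genes most higher in the lowest group. ACTA2 was low in all of them, at 127, 92.7 and 40.0 CPM, against 1936 CPM in T5.

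Higher in the upper group were WFDC2 (440, 476 and 830 CPM), SNCG (58.6, 128 and 209 CPM), CLDN4, a claudin of epithelial tight junctions (22.8, 31.97 and 95.3 CPM), TMEM97, TALDO1, an enzyme of the pentose phosphate pathway, MAP2K3, PDE6D and CHMP4C. MAP2K3 and TMEM97 are genes of chromosome 17 themselves. EIF5AL1 also rose but is a near-identical copy of EIF5A, which lies in the window, so its counts are uncertain. Outside the window, 184 of 3920 genes were lower in the upper than in the lower group (4.69%) and 90 higher (2.30%). Among windows of 20 Mb, that of chromosome 17 shifted most between these groups, with a median of 1.47 over 65 genes. Next were chr6:100000001-120000000 (-0.77, 20 genes) and chr11:1-20000000 (0.62, 34 genes). Their part in the other differences was not tested. In T20 the same ordering gave 31 lower and 44 higher of 3936 genes (0.788% and 1.12%), and COL3A1 stood at 433, 383 and 222 CPM. In S2 it gave 2.21% lower and 2.41% higher in T2.5, and 1.37% and 2.06% in T5. In S1 it gave 1.43% lower and 2.50% higher in T2.5, and 2.52% and 4.58% in T5. In S4 of T10 it gave 2.52% lower and 1.78% higher. The groups of T2.5, T5 and S4 held fewer cells than those of S2 in T10. In S4 of T10 COL3A1 also varied, at 2498, 2031 and 874 CPM, with 36, 38 and 36 cells. Median UMIs per cell were 2566, 2636 and 2704.5 and mitochondrial shares 9.10%, 8.84% and 9.66% in the T10 groups of S2, so neither differed much. With all 688 cells, COL3A1 stood at 2377 CPM in the lowest and 252 CPM in the highest group, 9.44-fold (7.87 to 11.4).

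**Figure D5:**
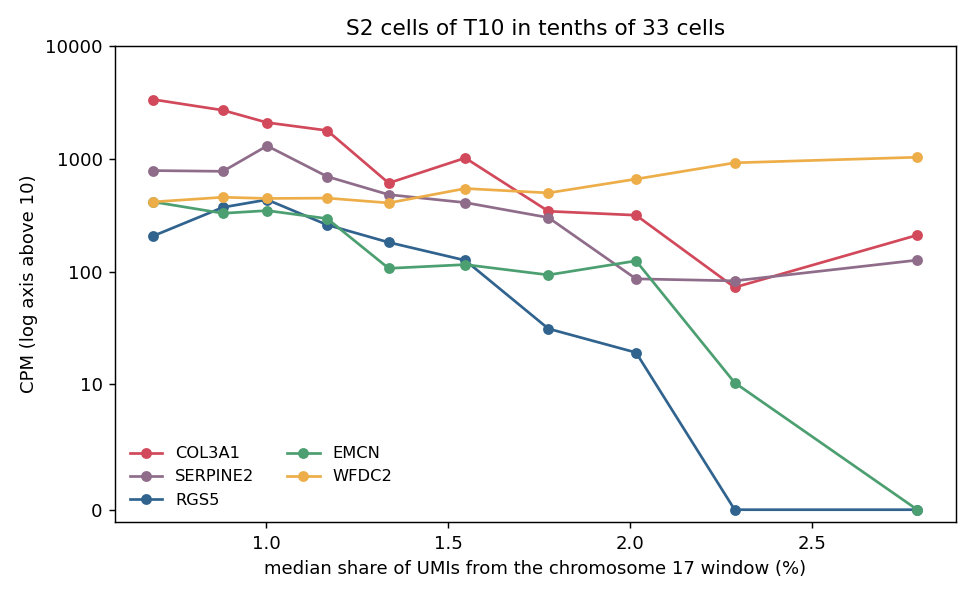
Level (CPM, axis linear below 10 and logarithmic above) of 5 genes against the median share of UMIs from the chromosome 17 window, for S2 cells of T10 with at least 2000 UMIs ordered by that share and cut into 10 groups of 33 cells. COL3A1 stands at 3349 CPM in the group with the lowest share and at 210 CPM in the one with the highest.

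In the cells without a state of the same libraries, COL3A1, RGS5, CYP1B1, SERPINE2, SLC8A1, FAM198B and EMCN were lower than in S2 in every library. COL1A1, ACTA2 and PDGFRB were not. COL3A1 stood at 624, 1972, 539 and 149 CPM in them from T2.5 to T20, and CYP1B1 at 334, 408, 399 and 650 CPM. SERPINE2 stood at 162, 383, 205 and 256 CPM, RGS5 at 216, 590.6, 113 and 127.5 CPM and EMCN at 40.8, 141.5, 81.2 and 37.4 CPM. COL3A1 thus peaked in T5 and was lowest in T20 there too, and CYP1B1 was highest in T20. COL1A1 stood at 162, 205, 623 and 94.0 CPM in them, above S2 in T10 and T20. ACTA2 stood at 720, 1382, 448 and 467 CPM, against 99.5 CPM in S2 of T10, and PDGFRB at 26.4 CPM in T10, against 7.66 CPM in S2.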

How the data were processed

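Single cells of Kuramochi, an established ovarian cancer line, were captured by inDrop, per the labels' protocols, in 1 library per olaparib dose. The deposited matrix holds UMI counts of 12373 genes in 18209 cells, and the authors' deposited cell table gives a state for 8240 cells and quality values such as the mitochondrial fraction. Seurat 2.3.2 and the builds hg38 and GRCh38 are named, per the submitters' processing notes. The sources used here do not name the aligner, the annotation or the filters on cells. In each library, genes seen in under about 1% of cells are listed at 0 (the smallest share above 0 was 0.957% to 0.995%), so a gene at 0 in a whole library is no measured absence.

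Counts were summed per library and state for groups of at least 50 cells, divided by the group's total and compared as log2(CPM + 10). Genes named in the text were the 12 whose smallest difference from the 5 other states was largest, in each direction, the 6 most different in each direction in both libraries of a within-library comparison or in a step between doses, the 4 with the highest peak or lowest trough in T10, the markers, and of each list the 4 members most changed and members named for their roles. The 8 genes in each direction of the chromosome 17 ordering, the spread of UMIs over cells and further members of the lists were chosen after their values were seen. The members and lists were chosen with earlier results of these data known. No test was possible with 1 library per dose. Intervals are exact Poisson intervals of folds and exact (Clopper-Pearson) binomial intervals of shares at 95%, and a count of 0 was set to 3 counts for a lower bound. Alternatives covered the scaling (edgeR 4.0.16 TMM and DESeq2 1.42.0 size factors, used for scaling only), the pseudocount, the minimum level, leaving out a library, thinning, the window size and the cells' depth. No doublet caller was run. Scripts used Python 3.11.15, numpy 2.4.6, pandas 2.3.3, scipy 1.17.1, matplotlib 3.10.9 and R 4.3.3, and were checked on simulated data.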

Additional observations from a re-analysis of the deposited data

How the results depend on the processing

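Of 214 alternative values for counts of genes and shares of cells, 156 stayed within 1.5 times the reported count or within the interval and 58 did not. Of 1073 for named genes and windows, 0 were counted as changing sign. A change was counted only for genes with a reported difference of at least 1 in size. Windows and smaller differences, such as those of the genes lowest in S2, could not be counted, so the 0 does not cover them. With a pseudocount of 50 CPM the counts of genes called were 185 for C, 59 for S1, 166 for S3, 138 for S4 and 307 for S5 across libraries, 5 above all states, 100 and 100 for S1 in T2.5 and T5, 177 and 191 for S3 and 156 and 158 for S4 in T10 and T20, and 40, 178, 127 and 123 for T2.5 to T5, T5 to T10, T10 to T20 and T5 to T20. With at least 200 CPM on 1 side they were, in the same order, 203, 64, 160, 153 and 316, then 12, then 69 and 64, 96 and 129, 115 and 109, and 41, 188, 155 and 111. With no CPM minimum they were 446 for S1 in T2.5, 689 and 716 for S3, 618 and 784 for S4 and 1 below all states. With a pseudocount of 1 CPM, T2.5 to T5 gave 321 and T10 to T20 gave 612. With S5 left out, 1 gene was below all remaining states. Leaving out the S2 cells of 1 library at a time gave 537 to 605 genes for C, 180 to 212 for S1, 451 to 630 for S3, 397 to 513 for S4, 739 to 937 for S5, 11 to 26 above all states and 0 to 1 below. Without thinning, the share of S2 cells with COL3A1 from T2.5 to T20 was 81.3%, 80.0%, 44.5% and 38.1%, with COL1A1 17.7%, 27.3% and 8.39% and with RGS5 49.8%, 13.95% and 23.3% from T5 to T20. Thinned to 700 UMIs, COL3A1 gave 32.1% in T10 and 17.5% in T20, and RGS5 26.1% in T2.5 and 6.83% in T10. The causes were not tested beyond fewer or more genes being eligible. Windows of 10 Mb and the use of all cells for the chromosome 17 share were chosen after seeing the data. No paired analysis was possible because the labels give no replicate numbers, each dose having 1 library; states that share a library were compared within it, as values with no test. Depth limits T2.5 most, with 343794 UMIs from 134 S2 cells.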
